A study of Homo sapiens with 16 samples.

Results

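H3K27ac, an acetylation of histone H3 found at active promoters and enhancers, was examined around 10 genes of death receptor signalling and necroptosis in THP-1 cells, a human monocytic leukemia line. The genes were TNFSF10, TNFSF13B, TNFRSF10A, TNFRSF10B, FAS, XAF1, RIPK1, RIPK3, MLKL and ZBP1. Their regions were the 1000 bp windows at merged ATAC-seq peaks that the deposited annotation assigned to 1 of these genes within 50000 bp of its transcription start site (TSS). This gave 55 of 151654 regions, of which 12 belonged to TNFSF10, 9 to MLKL, 7 each to TNFRSF10A and ZBP1, 6 to RIPK1, 3 each to TNFSF13B, TNFRSF10B, XAF1 and RIPK3, and 2 to FAS. In 23 of the 55, the window overlapped that of another member, so neighbouring regions share reads. Farthest from its TSS was a TNFSF13B window at +42491 bp, with 2.5 to 11 tags per library, and the nearest window outside the limit, at +52782 bp of the same gene, held 2.5 to 7 tags.

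Libraries came in 4 groups of 2. The labels give the genotype of the WT cells as Cas9 only. The USP18−/− line was made with CRISPR from cells sorted singly, so its genotype and its clone cannot be told apart. Each genotype was left untreated or received IFNα, a type I interferon, at 1000 U/ml for 6 h. The study calls the 2 libraries of a group biological replicates but no source names separate cultures, so p-values measure the spread between these libraries, which may be technical. Windows held 9046141 to 12935453.5 tags per library in all. USP18 itself encodes a protease that removes ISG15 from proteins and limits interferon receptor signalling, and H3K27ac does not test its deletion. Values are CPM, tags scaled to library size by the TMM method, and a region was called where the log2 fold change exceeded 1 in size at an adjusted p under 0.05 in edgeR's quasi-likelihood test over 123276 regions. Of the members, 50 passed the count filter of that test. At the monocytic markers, 10 of 10 had a region within 3000 bp of the TSS, with summed levels of 215 to 245 CPM over the 4 groups. Untreated, USP18−/− cells were called higher than WT at 1 of these 10 and lower at 1, against 5.69% and 10.8% of all regions. With IFN they were higher at 2 and lower at 2, against 11.3% and 13.5% of all. Over the 10, the median log2 fold change of USP18−/− against WT was 0.40 untreated and 0.04 with IFN. MPO, a granule gene of this list, did not follow this median. It was at 53.0 CPM in untreated WT and 53.4 in IFN treated WT cells. It was at 17.5 in untreated USP18−/− and 4.33 in IFN treated USP18−/− cells. Lists of other cell types summed to at most 9.26 CPM in any group, with T cell CD3E and CD3D, epithelial EPCAM and all 4 erythroid genes lacking a window. The part of the MPO difference in the results was not tested.

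Death receptors carry a cytoplasmic death domain. TRAIL, the product of TNFSF10, binds the receptors encoded by TNFRSF10A and TNFRSF10B, and FAS is bound by FAS ligand, after which adaptor proteins and caspase-8 start apoptosis. When caspase-8 is blocked, the kinase RIPK1 can instead act through the kinase RIPK3. RIPK3 phosphorylates MLKL, which breaks the plasma membrane in necroptosis. ZBP1, a sensor of Z-form nucleic acids, can recruit RIPK3 through shared RHIM sequences. XAF1 antagonises the caspase inhibitor XIAP, and TNFSF13B encodes BAFF, a survival factor for B cells made by myeloid cells. Several of these genes are known interferon-stimulated genes, whose promoters often hold an interferon-stimulated response element (ISRE).

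The sequences below come from hg38 and are shown because they hold an ISRE core, searched on both strands as GAAANNGAAA, in member regions described further on. ISRE cores are in capitals throughout. Across the 2 strongest TNFSF10 regions, longer stretches are given. In the first, the central 200 bases of the intergenic window at −23502 bp, read on the minus strand at chr3:172546909-172547108, the core lay 23537 bp upstream of the TSS. Its capitals also mark 2 copies of the PU.1 core GAGGAA, which reads as its reverse complement in this orientation. PU.1 is a lineage factor of monocytes. In the second, the 200 bases next to the 5′ end of the gene at chr3:172523476-172523675, plus strand, the core lay 138 bp upstream of the TSS.
TNFSF10 distal: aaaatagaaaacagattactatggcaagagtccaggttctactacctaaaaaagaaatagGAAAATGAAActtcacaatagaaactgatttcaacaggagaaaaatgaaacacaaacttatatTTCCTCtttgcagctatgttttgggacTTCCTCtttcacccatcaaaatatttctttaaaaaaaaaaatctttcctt
TNFSF10 promoter: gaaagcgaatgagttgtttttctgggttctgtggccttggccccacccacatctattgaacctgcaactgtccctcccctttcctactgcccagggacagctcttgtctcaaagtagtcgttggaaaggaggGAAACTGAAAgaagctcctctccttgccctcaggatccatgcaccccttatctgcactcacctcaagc
Shorter stretches follow for a TNFSF10 intron at chr3:172512736-172512795 on the plus strand, 10709 bp downstream of the TSS, for RIPK1 at chr6:3068286-3068345 on the minus strand, 182 bp upstream of the TSS nearest that window, and for the 5′ UTR of TNFSF13B at chr13:108269637-108269666 on the plus strand, 23 bp downstream of the TSS.
TNFSF10 intron: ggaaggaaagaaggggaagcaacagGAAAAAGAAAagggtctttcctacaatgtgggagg
RIPK1 promoter: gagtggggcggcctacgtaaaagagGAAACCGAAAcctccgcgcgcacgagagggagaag
TNFSF13B 5′ UTR: tacaaaaactGAAAGTGAAAtgaggaagac

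Over the whole set, the share of windows with an ISRE core was close to that elsewhere. A core lay in 10 of 55 member windows (18.2%), against 17.2% of all 151654 windows. In the central 200 bp, 1 member held a core, the TNFSF10 region at −23502 bp, against 5.43% of all windows. Over the whole windows, the NF-κB consensus, by name, lay in 20 of 55 (36.4%) against 21.8% of all, and the PU.1 core in 39 (70.9%) against 67.0%. Among the 20 regions that rose with IFN in USP18−/− cells (below), 6 held an ISRE core, 7 the NF-κB consensus and 17 the PU.1 core. Among the other 30 tested members 3, 12 and 18 did. Of the 6 with an ISRE core, 5 were TNFSF10 windows, and those at −23502 and −23275 bp share 1 core. These matches describe letters in a window and not factor binding.

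In WT cells, IFN raised H3K27ac at 2 of 50 tested member regions (4.0%), against 0.343% of all tested regions, and lowered none of them, against 0.0389% of all. Without replicate 1 or 2 of untreated WT the higher count was 1 or 3. With no fold threshold, 6 members had an adjusted p under 0.05, all higher, against 797 higher and 183 lower of all regions. The risen regions were the XAF1 promoter and the TNFSF10 region at −23502 bp. The median log2 fold change was 0.14 over the members and −0.01 over all regions. In USP18−/− cells, IFN raised 20 of 50 (40%), against 7.12% of all, and lowered none, against 4.41% of all. Of these, 11 belonged to TNFSF10, 3 to MLKL, 2 each to TNFSF13B and FAS, and 1 each to XAF1 and ZBP1. Both regions that rose in WT cells also rose there. Of 21 tested members within 3000 bp of the TSS 8 rose, and of 29 farther out 12 did. All regions were not matched to the members in distance from the TSS, here or for the other shares. The median was 0.72 over the members and −0.01 over all regions. Scaled by the sum of counts in place of TMM, the median of all regions moved to −0.14, 18 members were higher, and all regions split into 7472 higher and 7934 lower in place of 8781 and 5434.

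A contrast of the same fit tested whether the IFN effect differed between USP18−/− and WT cells. The difference was positive (a larger effect in USP18−/− cells) and called at 16 of 50 members (32.0%), against 4.61% of all regions, and negative at none, against 2.55% of all. TNFSF10 held 11 of the 16, TNFSF13B 2, FAS 2 and MLKL 1. All 16 were among the 20 that rose in USP18−/− cells. At an unadjusted p under 0.05 in edgeR, 8 members were higher and 0 lower with IFN in WT cells, and 27 and 2 in USP18−/− cells. For the difference, 22 were positive and 2 negative. The share of all regions at this unadjusted cut was not counted. DESeq2 called 0 members lower in each, against 7, 4408 and 2386 of all regions. With DESeq2, 8 of the members passed for this difference, all positive, against 4135 positive calls over all 123276 regions. Scaled by the sum of counts, 14 did, and all regions split into 4686 positive and 4829 negative calls in place of 5682 and 3140.

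**Figure D1:**
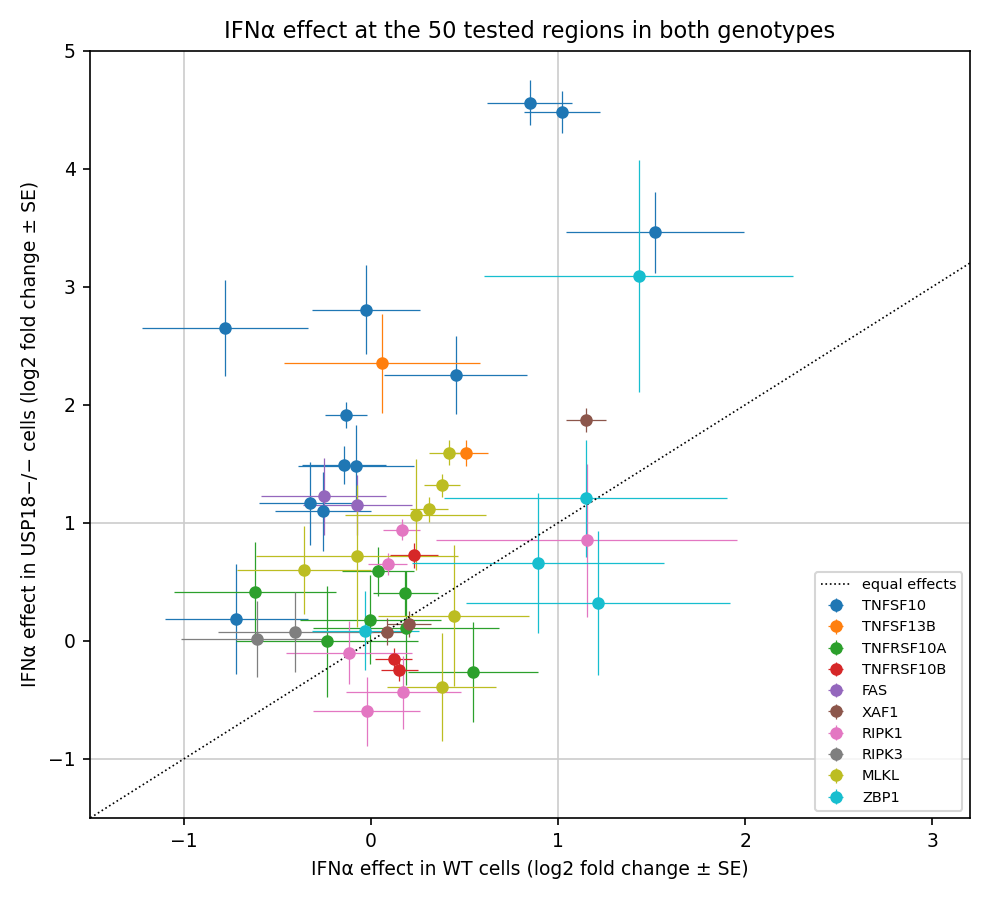
IFNα effect in WT cells (x axis) and in USP18−/− cells (y axis) as log2 fold changes with their SE at the 50 tested regions, coloured by gene, with the dotted line at equal effects and grey lines at 1 and −1. TNFSF10 regions reach 4.56 on the y axis, and the XAF1 region stands at 1.15 on the x axis and 1.87 on the y axis.

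TNFSF10 had the largest changes. Its region at −23502 bp, intergenic and upstream of the gene at chr3:172546509-172547509, gave 3.32 and 6.37 CPM in untreated WT and 9.94 and 10.1 CPM in IFN treated WT cells. In USP18−/− cells, the untreated libraries stood at 2.45 and 3.09 CPM and those with IFN at 67.5 and 55.8 CPM. The IFN treated USP18−/− libraries lay far above all others, and the groups did not overlap. IFN raised the region 22.3-fold in USP18−/− cells (log2 4.48, SE 0.18, adjusted p = 3.1e-36 by edgeR). WT cells gave a log2 fold change of 1.02 (SE 0.20, adjusted p = 0.00099 by edgeR), a call that was lost with DESeq2 (1.04, adjusted p = 0.0953) and without replicate 1 of untreated WT (0.65, adjusted p = 0.408). The difference of the effects was 3.46 (SE 0.30, adjusted p = 1.1e-15 by edgeR). The region at −23275 bp overlaps it and rose 23.6-fold in USP18−/− cells, from 1.58 and 2.90 to 47.0 and 57.8 CPM. Its IFN treated WT libraries stood at 7.05 and 7.41 CPM, and its untreated WT libraries at 3.01 and 4.91 CPM. That WT effect, 0.85, was called without replicate 2 of untreated WT (1.26, adjusted p = 0.0335 by edgeR).

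At the TNFSF10 promoter, centred at −14 bp (chr3:172522989-172523989), the basal signal was much higher. Untreated WT libraries gave 39.6 and 34.4 CPM, IFN treated WT 32.4 and 35.0, untreated USP18−/− 22.1 and 21.1, and IFN treated USP18−/− 87.2 and 75.7 CPM. Both WT groups overlapped, the untreated USP18−/− libraries lay below them and the treated ones above. The promoter rose 3.77-fold with IFN in USP18−/− cells (log2 1.92, SE 0.11, adjusted p = 1.4e-26 by edgeR). WT cells gave −0.13 on the same scale (SE 0.11, adjusted p = 0.80 by edgeR). With IFN, the USP18−/− to WT log2 fold change was 1.27 (SE 0.10), which fell to 0.99 when scaled by the sum of counts and to 0.90 with loess offsets. Untreated, the log2 fold change of USP18−/− against WT was −0.78 (SE 0.12, adjusted p = 4.6e-08 by edgeR), short of the fold threshold, and it passed with loess offsets at −1.11.

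**Figure D2:**
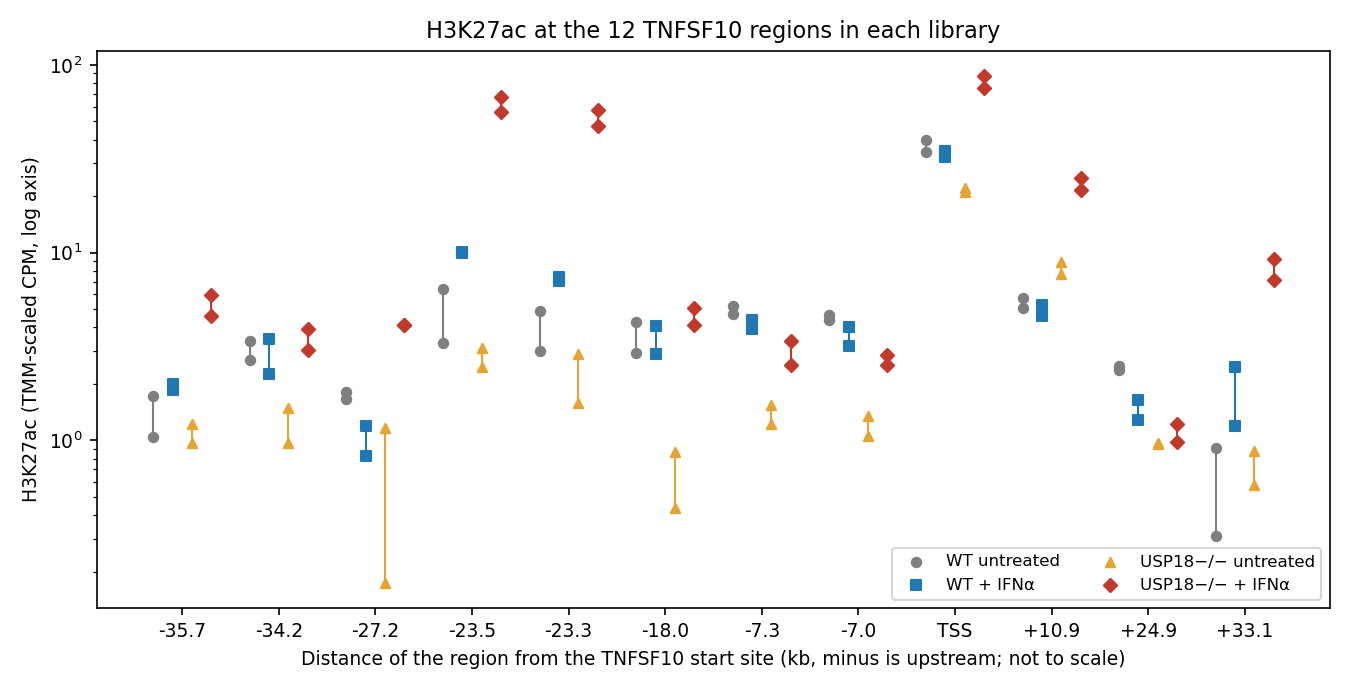
H3K27ac in CPM on a log axis at the 12 TNFSF10 regions, ordered by distance from the TSS, with 1 point per library and a line joining the 2 libraries of a group. The IFN treated USP18−/− libraries reach 67.5 CPM at −23502 bp and 87.2 CPM at the TSS, and the untreated USP18−/− libraries are the lowest at several upstream regions.

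The intronic region at +10922 bp (chr3:172512053-172513053, intron 2) gave 5.08 and 5.73 CPM in untreated WT, 4.57 and 5.25 in IFN treated WT, 7.70 and 8.90 in untreated USP18−/− and 25 and 21.5 CPM in IFN treated USP18−/− cells. The untreated USP18−/− libraries here lay above both WT groups, opposite to the promoter. In USP18−/− cells it rose by a log2 fold change of 1.49 with IFN (SE 0.16, with an adjusted p of 1.8e-12 by edgeR). With IFN it was 4.74-fold higher than in WT cells. Downstream of the gene at +33129 bp, IFN treated USP18−/− libraries gave 9.25 and 7.14 CPM against 0.875 and 0.580 CPM untreated. The WT libraries there gave 0.311 and 0.910 CPM untreated and 1.19 and 2.47 CPM with IFN.

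Several upstream TNFSF10 regions were lower in untreated USP18−/− cells. At −17974 bp, untreated WT libraries gave 4.25 and 2.91 CPM and untreated USP18−/− libraries 0.438 and 0.870 CPM, a log2 fold change of −2.44 (SE 0.40, adjusted p = 3.8e-07 by edgeR). With IFN, WT libraries gave 4.07 and 2.88 CPM and USP18−/− libraries 4.09 and 5.07 CPM. The USP18−/− libraries thus rose with IFN to 4.09 CPM and above, and the USP18−/− to WT log2 fold change with IFN was 0.39 (SE 0.28, adjusted p = 0.28 by edgeR). The overlapping windows at −7324 and −6968 bp, which were also lower untreated (−1.83 and −1.91), stood at 2.54 to 3.38 CPM in treated USP18−/− cells and 3.18 to 4.37 CPM in treated WT cells. Their rise with IFN (1.10 and 1.16) was lost without replicate 1 of untreated USP18−/− (0.91 and 0.96) or of IFN treated USP18−/− cells (0.86, and 1.07 at an adjusted p of 0.0685 by edgeR). Thus the rise with IFN in USP18−/− cells ended at different levels. Of the 11 TNFSF10 regions that rose there, 7 exceeded WT cells with IFN by a call. The 12th, at +24922 bp, was lower in untreated USP18−/− cells (−1.32) and gave 0.18 on the log2 scale with IFN (SE 0.46).

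Summed over 10 non-overlapping TNFSF10 windows, the mean was 65.0 CPM in untreated WT, 65.3 in IFN treated WT, 39.4 in untreated USP18−/− and 196 CPM in IFN treated USP18−/− cells. By the distance over the 3 fitted group differences from untreated WT, the regions most like the TNFSF10 promoter among 22647 within 1000 bp of the TSS of other genes were at RPL13AP20, GBP3 and ARHGAP5. Their distances were 0.081, 0.18 and 0.18 log2 units. Likeness was measured over 4 groups only.

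TNFSF13B, the gene of BAFF, rose with IFN at its promoter in USP18−/− cells. The region at +151 bp (chr13:108269280-108270280, 5′ UTR and exon 1) gave 21.2 and 20.4 CPM in untreated WT, 29.4 and 29.5 in IFN treated WT, 23.9 and 24.8 in untreated USP18−/− and 70.9 and 75.7 CPM in IFN treated USP18−/− cells. The groups did not overlap. The rise was 3.01-fold in USP18−/− cells (log2 1.59, SE 0.11, adjusted p = 2.3e-22 by edgeR). WT cells gave 0.51 (SE 0.12, adjusted p = 0.013 by edgeR), below the fold threshold. The difference of 1.09 (SE 0.16) went to 0.95 when scaled by the sum of counts. An intronic region at +12474 bp gave 0.788 and 0.580 CPM untreated and 3.56 and 3.57 CPM with IFN in USP18−/− cells. Its WT libraries ranged from 0.397 to 1.44 CPM. The difference of the effects there (2.29, SE 0.69, adjusted p = 0.016 by edgeR) was no longer called without replicate 1 of untreated WT (adjusted p = 0.135), replicate 1 of IFN treated WT (0.141) or replicate 2 of untreated USP18−/− (0.055).

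Of the receptors of TRAIL, TNFRSF10B differed between genotypes. Its promoter region at +62 bp (chr8:23068625-23069625) gave 19.3 and 18.0 CPM in untreated WT, 21.9 and 21.8 in IFN treated WT, 43.9 and 34.6 in untreated USP18−/− and 62.3 and 67.9 CPM in IFN treated USP18−/− cells. USP18−/− libraries lay above WT libraries in both states. Untreated, the log2 fold change stood at 1.08 (SE 0.12, adjusted p = 5.8e-12 by edgeR), which fell to 0.93 when scaled by the sum of counts, to 0.78 with loess offsets and to 0.89 without replicate 1 of untreated USP18−/−. With IFN it was 1.57 (SE 0.11, adjusted p = 9.6e-21 by edgeR). IFN itself gave 0.73 in USP18−/− cells (SE 0.11, adjusted p = 3.1e-08 by edgeR) and 0.23 in WT cells (SE 0.13), both under the fold threshold. The stronger windows at −5619 and −5356 bp overlap each other. At −5356 bp, WT libraries gave 45.5 to 57.6 CPM. Untreated USP18−/− libraries gave 71.0 and 78.8 CPM there and IFN treated ones 65.8 and 68.4 CPM, with no call. The difference of the IFN effects was −0.28 at −5356 bp (SE 0.14). At −5619 bp it was −0.40 (SE 0.14, adjusted p = 0.045 by edgeR). Both were under the fold threshold and opposite in sign to the 0.50 at the promoter.

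TNFRSF10A, the other TRAIL receptor with a death domain, had no region that was called with IFN in either genotype. Its promoter region at −6 bp (chr8:23224673-23225673) gave 10.2 and 10.9 CPM in untreated WT, 11.8 and 12.1 in IFN treated WT, 7.44 and 6.19 in untreated USP18−/− and 9.25 and 8.83 CPM in IFN treated USP18−/− cells. USP18−/− libraries were below WT libraries, with log2 fold changes of −0.63 untreated (SE 0.19) and −0.41 with IFN (SE 0.18). An intronic region at +21447 bp was called lower in USP18−/− cells with IFN (−1.30, SE 0.38, adjusted p = 0.0032 by edgeR). There IFN treated WT libraries gave 3.18 and 2.47 CPM and IFN treated USP18−/− libraries 0.890 and 1.41 CPM, and the call was lost without replicate 1 of either treated group (adjusted p of 0.0622 and 0.0672).

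FAS had low signal at both of its overlapping promoter windows. At +269 bp (chr10:88990328-88991328), untreated WT libraries gave 2.70 and 3.64 CPM, IFN treated WT 2.98 and 3.09, untreated USP18−/− 2.63 and 3.09, and IFN treated USP18−/− 6.76 and 5.92 CPM. Treated USP18−/− libraries lay above the other groups, which overlapped. With IFN, the USP18−/− to WT log2 fold change there was 1.06 (SE 0.26), a call. It fell to 0.78 when scaled by the sum of counts and to 0.95 with tag directory totals. Without replicate 1 of IFN treated USP18−/− it was 0.94. The rise in USP18−/− cells had a log2 fold change of 1.15 (SE 0.25, adjusted p = 0.00019 by edgeR). The difference from the WT effect was 1.22 (SE 0.39, adjusted p = 0.023 by edgeR), and 1.48 (SE 0.47) at −369 bp. Neither difference was called with DESeq2 (adjusted p of 0.0932 and 0.107). At +269 bp it was also lost without replicate 2 of untreated WT, replicate 1 or 2 of IFN treated WT, or replicate 1 of either USP18−/− group (adjusted p of 0.209, 0.0703, 0.0571, 0.106 and 0.085). At −369 bp it was lost without replicate 2 of untreated WT, replicate 1 of IFN treated WT, or replicate 2 of either USP18−/− group (adjusted p of 0.24, 0.0985, 0.139 and 0.0572). The rise at −369 bp in USP18−/− cells, 1.22, was lost without replicate 2 of untreated USP18−/− (0.92, adjusted p = 0.0769 by edgeR).

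**Figure D3:**
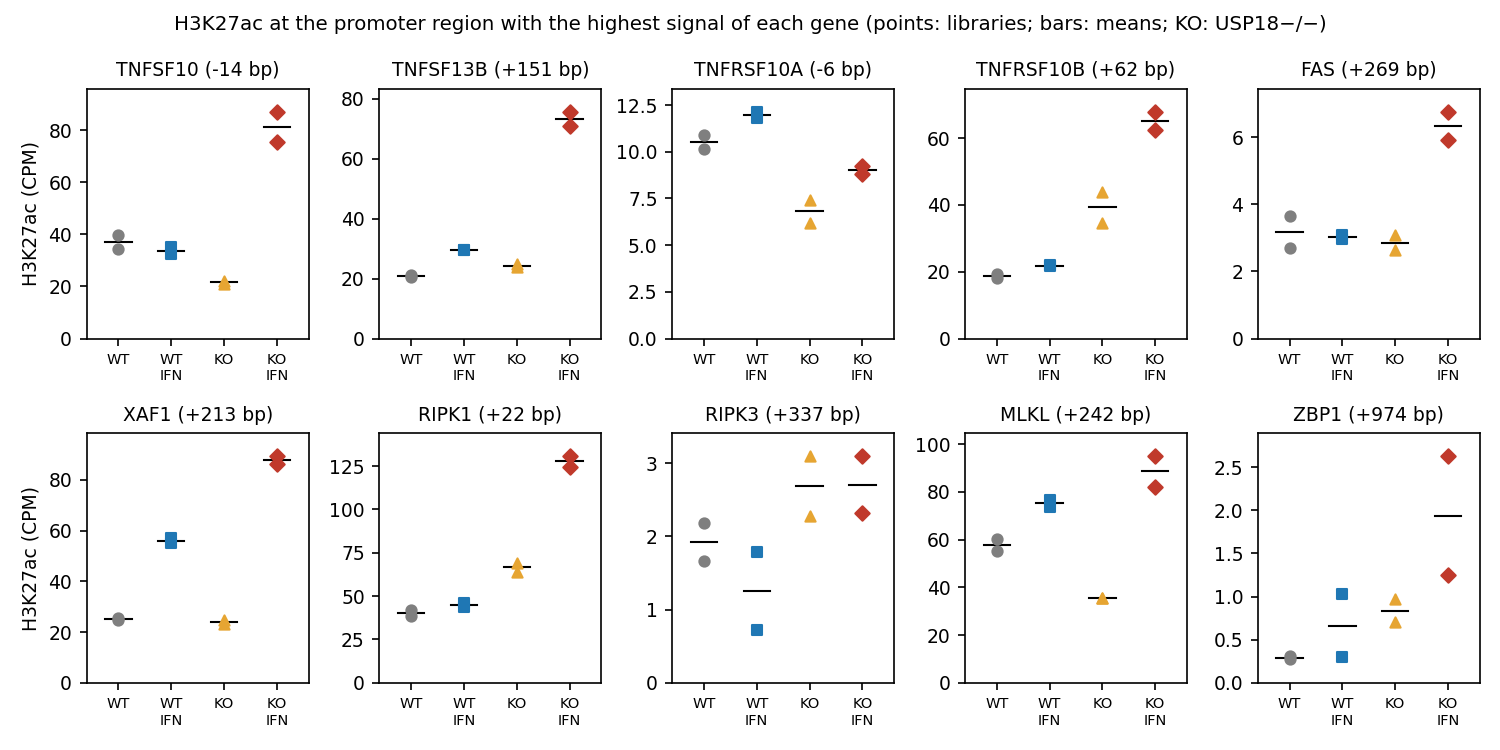
H3K27ac in CPM at the tested region with the highest signal within 3000 bp of the TSS of each gene, by group (KO is USP18−/−), with points for libraries and bars for the mean of 2. IFN treated USP18−/− libraries lie above every other group at TNFSF10, TNFSF13B, TNFRSF10B, FAS, XAF1, RIPK1 and MLKL, and the axes differ, with RIPK3 and ZBP1 below 4 CPM.

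XAF1 had the 1 member promoter that rose with IFN in WT cells. Its region at +213 bp (chr17:6755546-6756546, exon 1 of a noncoding transcript) gave 24.9 and 25.6 CPM in untreated WT, 55.0 and 56.9 in IFN treated WT, 24.9 and 23.1 in untreated USP18−/− and 86.1 and 89.4 CPM in IFN treated USP18−/− cells. All untreated libraries lay between 23.1 and 25.6 CPM, and both treated groups lay above them. IFN raised it 2.22-fold in WT (log2 1.15, SE 0.11, adjusted p = 8.4e-14 by edgeR) and 3.65-fold in USP18−/− cells (log2 1.87, SE 0.10, adjusted p = 2.5e-27 by edgeR). The difference was 0.72 (SE 0.15, adjusted p = 0.00018 by edgeR), below the fold threshold. No GAAANNGAAA core lay in this window. The overlapping windows at −2720 and −2228 bp gave 24.2 to 42.6 CPM over all libraries, and their log2 fold changes with IFN ranged from 0.07 to 0.20.

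RIPK1 had the highest level of the member windows in IFN treated USP18−/− cells, all windows being 1000 bp long. In the other groups MLKL or TNFRSF10B windows were higher. Its region at +22 bp (chr6:3068020-3069020) gave 41.9 and 38.2 CPM in untreated WT, 43.8 and 45.8 in IFN treated WT, 63.9 and 69.2 in untreated USP18−/− and 131 and 125 CPM in IFN treated USP18−/− cells. The 4 groups did not overlap. The USP18−/− to WT log2 fold change was 1.51 with IFN (SE 0.09, with an adjusted p of 8e-25 by edgeR), a call, and 0.73 untreated (SE 0.10, adjusted p = 1e-09 by edgeR). IFN gave 0.94 in USP18−/− cells (SE 0.09, adjusted p = 4.2e-15 by edgeR), just under the fold threshold, and 0.16 in WT cells (SE 0.10). Without replicate 2 of untreated USP18−/− the first passed it at 1.00. The overlapping region at +257 bp was also higher in USP18−/− cells with IFN (1.25, SE 0.10), which went to 0.98 when scaled by the sum of counts and to 0.80 with loess offsets. At another RIPK1 start, the window at −2 bp (chr6:3063339-3064339) held 1.66 to 5.43 CPM and had no call.

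RIPK3 had little signal, from 0 to 3.10 CPM over all its windows. At +337 bp (chr14:24339199-24340199, intron 1), untreated WT gave 1.66 and 2.18 CPM, IFN treated WT 1.79 and 0.721, untreated USP18−/− 2.28 and 3.09, and IFN treated USP18−/− 2.31 and 3.10 CPM. The USP18−/− libraries lay above the WT libraries. The log2 fold change with IFN was 1.09 between genotypes (SE 0.38, adjusted p = 0.015 by edgeR). It was not called with DESeq2 (adjusted p = 0.0766), scaled by the sum of counts (0.0774), or without replicate 2 of IFN treated WT (0.311) or of IFN treated USP18−/− (0.149). With tag directory totals its log2 fold change was 0.97. IFN within USP18−/− cells gave 0.02 (SE 0.32).

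MLKL, the executor of necroptosis, was lower in untreated USP18−/− cells and rose with IFN there. At +242 bp (chr16:74700406-74701406, 5′ UTR and exon 1), untreated WT libraries gave 55.2 and 60.2 CPM, IFN treated WT 76.6 and 73.7, untreated USP18−/− 35.6 and 35.4, and IFN treated USP18−/− 95 and 82.1 CPM. The groups did not overlap, and the treated groups were close to each other. IFN raised it 2.49-fold in USP18−/− cells (log2 1.32, SE 0.10, adjusted p = 2.7e-20 by edgeR) and 1.30-fold in WT cells (log2 0.38, SE 0.09, adjusted p = 0.023 by edgeR), the latter under the fold threshold. Untreated, USP18−/− against WT was −0.70 (SE 0.10, adjusted p = 1.2e-08 by edgeR), under the threshold, and −1.11 with loess offsets. With IFN it was 0.24 (SE 0.09). The overlapping regions at −72 and +838 bp rose with IFN in USP18−/− cells, with log2 fold changes of 1.12 and 1.60. The first went to 0.99 when scaled by the sum of counts. Only at +838 bp among the MLKL regions was the difference of the effects called (1.18, SE 0.15, adjusted p = 5e-09 by edgeR). At +242 bp it was 0.94 and passed without replicate 2 of IFN treated USP18−/− (1.02).

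Away from the promoter, 3 MLKL windows were lower in untreated USP18−/− cells, at −20846, −8454 and +16531 bp. At −8454 bp (chr16:74709102-74710102, intergenic), WT libraries gave 2.70 and 3.64 CPM untreated and 4.17 and 4.12 with IFN, and USP18−/− libraries gave 1.40 and 0.870 untreated and 0.712 and 1.03 with IFN. All WT libraries lay above all USP18−/− libraries. The log2 fold change was −1.47 untreated (SE 0.36) and −2.24 with IFN (SE 0.36, adjusted p = 2.3e-07 by edgeR). The IFN effect in USP18−/− cells there was −0.40 (SE 0.46). At −20846 bp the values were −1.52 untreated and −1.75 with IFN. That window lies upstream of MLKL in an intron of another transcript (NM_024306). It held 4 to 7.5 tags in the USP18−/− libraries.

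ZBP1 was weak throughout, with at most 4.46 CPM in any library and window. Nearest its TSS among tested windows, at +974 bp (chr20:57619102-57620102, intron 1), libraries gave 0.311 and 0.273 CPM in untreated WT, 0.298 and 1.03 in IFN treated WT, 0.70 and 0.967 in untreated USP18−/− and 1.25 and 2.63 CPM in IFN treated USP18−/− cells. USP18−/− exceeded WT cells with IFN by 1.53 (SE 0.53, adjusted p = 0.015 by edgeR). The call was lost with DESeq2 (adjusted p = 0.092), scaled by the sum of counts (0.0505), and without replicate 1 of IFN treated WT (0.262) or replicate 2 of IFN treated USP18−/− (0.394). At +23427 bp, untreated USP18−/− libraries held 2 and 0 rounded tags and IFN treated ones 7 and 12. The ratio was 9.45, with an exact Clopper-Pearson 95% interval of 2.28 to 83.7 that covers counting error only. The fitted call there was lost without replicate 2 of untreated USP18−/− (adjusted p = 0.148). Changes at ZBP1 were thus barely measurable at this depth.

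Across genotypes, untreated USP18−/− cells were lower than WT at 9 of 50 members (18.0%), against 10.8% of all regions, and higher at 1 (2.0%), against 5.69% of all. TNFSF10 held 6 of the lower regions and MLKL 3, and the higher one was the TNFRSF10B promoter. The TNFSF10 call at −27230 bp (−1.42) was lost with DESeq2 (adjusted p = 0.0651). It was also lost without replicate 1 of untreated USP18−/− (−0.58) or replicate 2 of untreated WT (−1.35). The call at −34219 bp (−1.29) was lost without replicate 2 of untreated WT (−1.12) or of untreated USP18−/− (−1.03). The TNFSF10 windows at −7324 and −6968 bp overlap. Without replicate 1 or 2 of untreated WT the lower count was 12 or 6, and the higher count was 2 without the latter and 0 without replicate 1 of untreated USP18−/−. The median was −0.34 over the members and −0.02 over all. With IFN, 15 members were higher (30.0%), against 11.3% of all, and 3 lower (6.0%), against 13.5% of all. The higher ones were 7 of TNFSF10, 2 each of TNFSF13B and RIPK1, and 1 each of TNFRSF10B, FAS, RIPK3 and ZBP1, and the lower ones 2 of MLKL and 1 of TNFRSF10A. Of 5 regions that were lower untreated and rose with IFN in USP18−/− cells, 1 then exceeded WT cells. Scaled by the sum of counts, members gave 0 higher and 10 lower untreated, and 10 higher and 3 lower with IFN. That scaling moved the median of all regions to −0.16 and −0.27. All regions then gave 4990 higher and 16943 lower untreated, in place of 7020 and 13321, and 8825 and 24119 with IFN in place of 13971 and 16595. The 5 comparisons share groups and are not independent of each other.

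**Figure D4:**
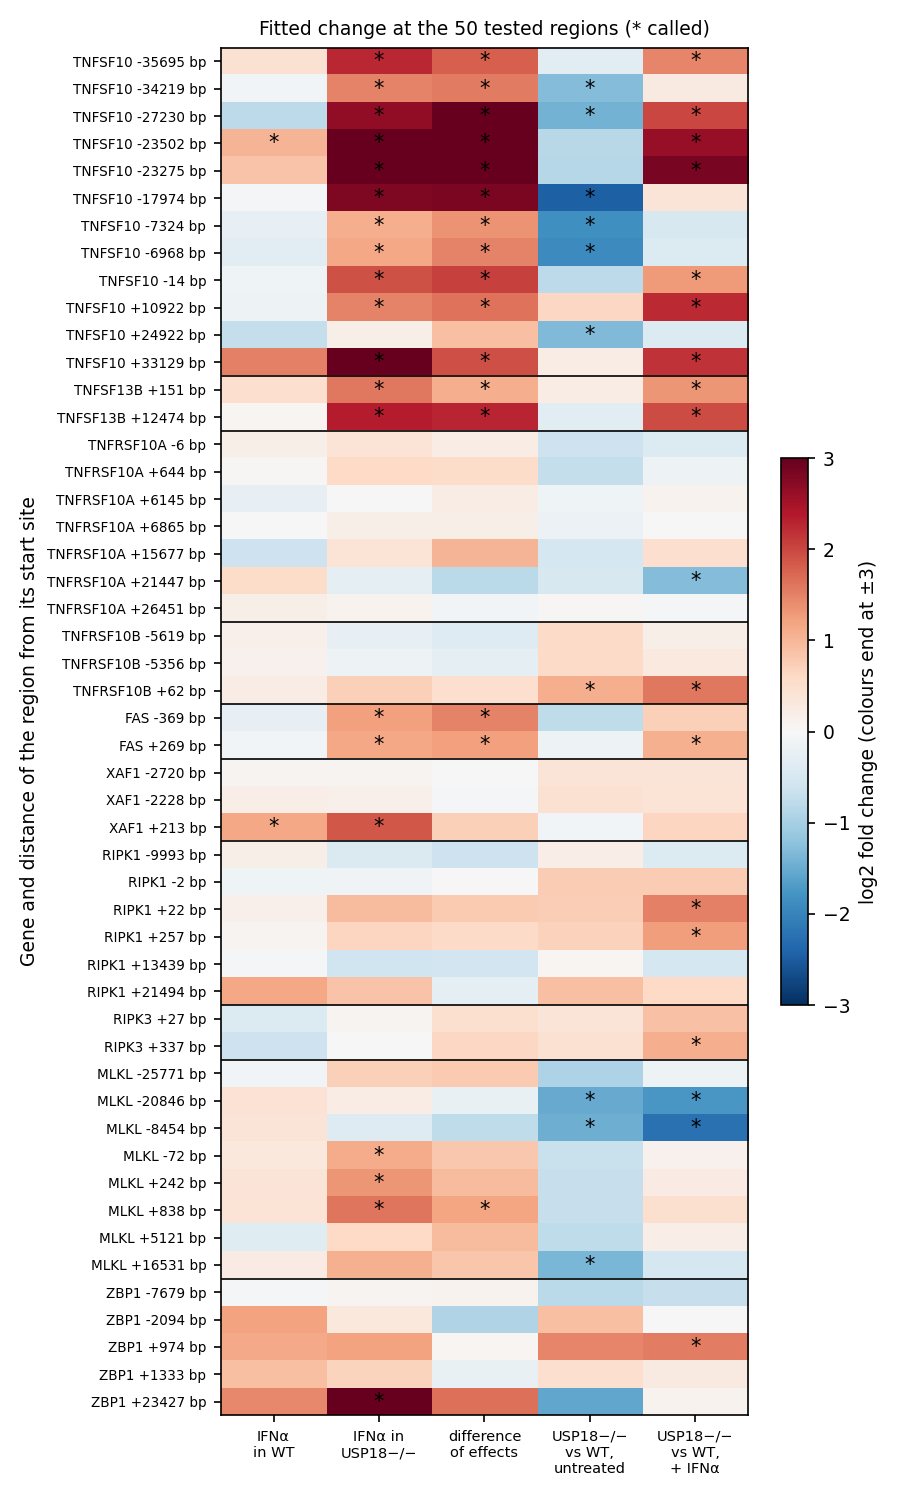
Fitted log2 fold changes at the 50 tested regions (rows, by gene and distance from the TSS) in 5 comparisons (columns), red for higher and blue for lower, with colours ending at 3 in size and a star where called. TNFSF10 holds 11 of the 16 stars for the difference of the IFN effects and 6 of the 9 for lower signal in untreated USP18−/− cells.

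The rest of the pathway was read from 7 lists with 55 genes, of which 47 had a region within 3000 bp of the TSS and were tested. With IFN 2 of 47 were higher in WT cells, against 0.343% of all regions, and 4 of 47 in USP18−/− cells, against 7.12% of all, a count near the background. None were lower, against 0.0389% and 4.41% of all. USP18−/− cells exceeded WT at 7 of 47 untreated, against 5.69% of all regions, and at 16 of 47 with IFN, against 11.3% of all. They were lower at 1 in each state, against 10.8% and 13.5% of all. All regions include distal windows, whereas these 47, and the lists taken from them below, lie within 3000 bp of a TSS. The shares are therefore of unlike sets, and whether promoters in general share the excess was not tested. The median log2 fold change of the 47 with IFN was 0.07 in WT and 0.26 among USP18−/− libraries. Of the 4 that rose in USP18−/− cells, ADAR and AXL are in the list of necroptosis regulators. ADAR edits double-stranded RNA and limits ZBP1 activation. It gave 42.2 and 39.9 CPM in untreated WT, 92.4 and 89.9 in IFN treated WT, 48.3 and 37.9 in untreated USP18−/− and 190 and 182 CPM in IFN treated USP18−/− cells. Both treated groups stood above the untreated ones, with log2 fold changes of 1.15 in WT (SE 0.09, adjusted p = 2.9e-16 by edgeR) and 2.11 in USP18−/− cells (SE 0.09, adjusted p = 1.2e-33 by edgeR). AXL, a receptor kinase, rose by 1.10 in WT (SE 0.26) and 1.46 in USP18−/− cells (SE 0.26). Its WT call was lost with DESeq2 (adjusted p = 0.0858) and without any single WT library (adjusted p of 0.0597 to 0.292).

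**Figure D5:**
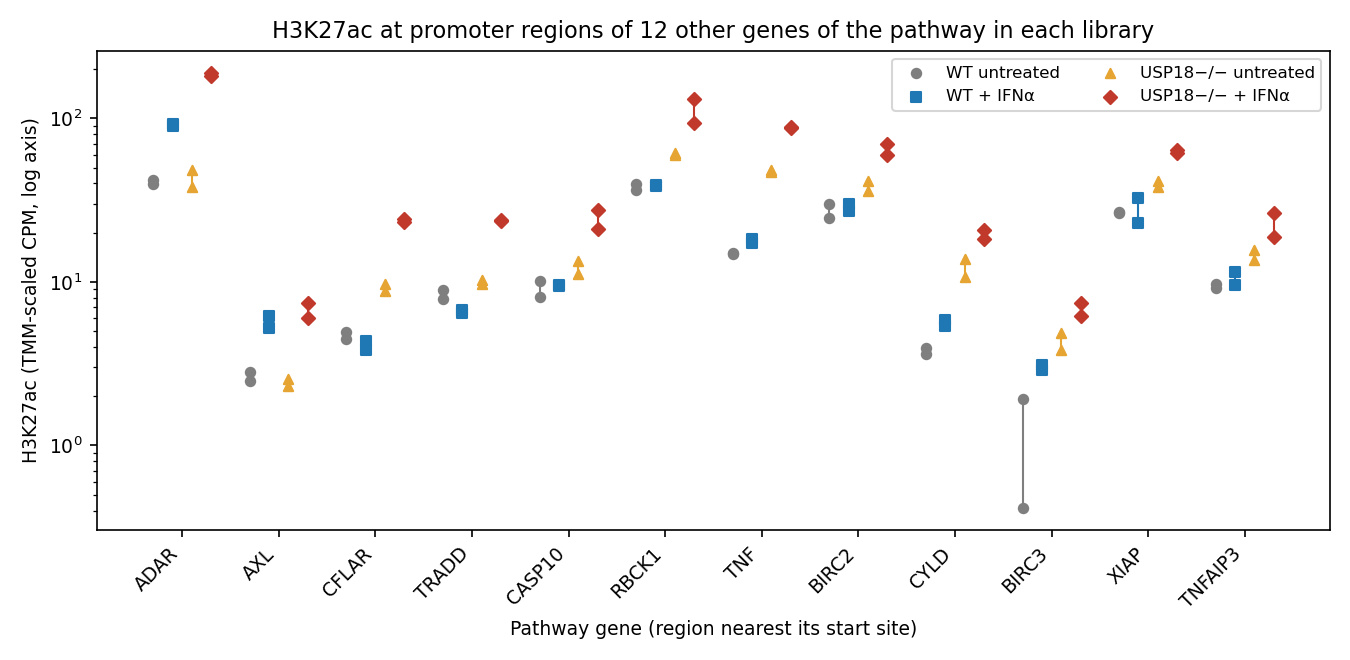
H3K27ac in CPM on a log axis at the region nearest the TSS of 12 other genes of the pathway, with 1 point per library and a line joining the 2 libraries of a group. ADAR reaches 190 CPM in IFN treated USP18−/− cells, and at TNF both USP18−/− groups lie above both WT groups.

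In the complex that forms at death receptors, CFLAR and TRADD rose with IFN in USP18−/− cells and not in WT cells. CFLAR encodes FLIP, an inhibitor of caspase-8 activation, and TRADD is the adaptor of the TNF receptor. CFLAR gave 4.46 and 4.91 CPM in untreated WT, 4.37 and 3.81 in IFN treated WT, 9.71 and 8.80 in untreated USP18−/− and 24.2 and 23.2 CPM in IFN treated USP18−/− cells. The difference of the IFN effects was 1.55 at CFLAR (SE 0.29, adjusted p = 2.4e-05 by edgeR) and 1.59 at TRADD (SE 0.25, adjusted p = 5.5e-07 by edgeR). CASP10, a death receptor caspase, was higher in USP18−/− cells with IFN (1.35, SE 0.16), as 3 of the 7 tested genes of this list were, against 11.3% of all regions. Among caspase inhibitors, BIRC2, BIRC3 and XIAP were higher in USP18−/− cells with IFN (1.18, 1.20 and 1.17), and BIRC3 also untreated (1.83, SE 0.34). All 3 fell below a log2 fold change of 1 when scaled by the sum of counts (0.90, 0.92 and 0.90), and XIAP also without replicate 2 of IFN treated WT (0.94). At BIRC3, untreated WT libraries gave 0.415 and 1.91 CPM, and the untreated value was 3.34 without the second of them.

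Of the 13 ubiquitin enzymes and kinases that act at RIPK1, 5 were higher in USP18−/− cells with IFN, against 11.3% of all regions, and 3 untreated, against 5.69% of all. None were lower, against 13.5% and 10.8% of all. CYLD, which removes ubiquitin chains from RIPK1, was higher by 1.69 untreated (SE 0.21) and 1.79 with IFN (SE 0.18). RBCK1, a subunit of the linear ubiquitin ligase, was higher by 1.53 with IFN (SE 0.10), and TNFAIP3, which encodes A20, by 1.11 (SE 0.16), which went to 0.83 when scaled by the sum of counts, and to 0.98 and 0.82 without replicate 1 of IFN treated WT and of IFN treated USP18−/− cells. Among other death ligands, TNF was higher by 1.66 untreated (SE 0.12, adjusted p = 4.7e-21 by edgeR) and 2.30 with IFN (SE 0.11, adjusted p = 5.5e-31 by edgeR). Its IFN effects were 0.25 in WT and 0.89 in USP18−/− cells, neither called. Of the 8 other death and decoy receptors, 1 was higher in USP18−/− cells with IFN, a share near the 11.3% of all regions. The 1 tested receptor of BAFF, at TNFRSF13C, had no call in any comparison.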

How the data were processed

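H3K27ac ChIP-seq libraries of THP-1 cells were paired-end sequenced. Bowtie2 served the authors for mapping to hg38, and HOMER for the tag counts of windows (1000 bp) centred on merged peaks of ATAC-seq. The authors deposited estimated counts, which are raw tags that need not be whole and carry no normalization. Of these values 52.2% were whole, and all were rounded to whole numbers here. Tags in overlapping windows (31.8% of windows) count in each. No value column was left unmapped. The authors' own tests used DESeq2 and are not used here.

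A region needed 10 counts in 2 or more of the 8 libraries to be tested, with edgeR 4.0.16 (limma 3.58.1, R 4.3.3). Counts were scaled by TMM and fitted with 1 mean per group, and edgeR's quasi-likelihood test was Benjamini-Hochberg adjusted over all 123276 regions. The common biological coefficient of variation was 0.0747. SE is the log2 fold change divided by the root of F. Each group has 2 libraries (9046141 to 12935453.5 tags in the windows), so the estimate of spread leans on the other regions. Intervals cover counting error only.

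Named were, per gene, the tested region nearest the TSS, that with the highest mean and up to 4 called regions by smallest adjusted p. Of the pathway lists, at most 12 called genes were named, by size of the IFN effect in USP18−/− cells, and other regions were named after their values were seen. The members and lists were chosen with earlier results of these data known. Motifs were searched in hg38 with pysam 0.24.0 in Python 3.11.15, and annotated with GENCODE. Distances and annotations of regions are those of the deposited table.

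Libraries of a group differed beyond sampling noise (mean chi-square per region 1.36 to 1.76), so none was treated as a duplicate deposit. Steps were tested on simulated data. Alternatives covered scaling (sum of counts, loess offsets, tag directory totals), DESeq2 1.42.0, the filter, the fold threshold, distance limits, 1 window per chain of overlapping windows, the libraries in the fit, a replicate block and leaving out each library. Tag directory totals and unrounded tags were chosen after seeing the data. Neither the inputs nor ATAC-seq signal was used here. Some marker and motif results are not reported here.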

Additional observations from a re-analysis of the deposited data

Results flagged for a closer look

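The effect of IFN differed between genotypes at 16 member regions by a contrast of the same edgeR fit, and in each the effect was larger in USP18−/− cells. At TNFSF10 the difference of the log2 fold changes was 1.80 at −35695 bp, 1.56 at −34219 bp, 3.43 at −27230 bp, 3.46 at −23502 bp, 3.71 at −23275 bp and 2.83 at −17974 bp. Nearer the gene it was 1.35 at −7324 bp, 1.49 at −6968 bp, 2.05 at the promoter, 1.63 at +10922 bp and 1.94 at +33129 bp. It was 1.09 and 2.29 at the TNFSF13B regions at +151 and +12474 bp, 1.48 and 1.22 at the FAS regions at −369 and +269 bp, and 1.18 at the MLKL region at +838 bp.

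At the TNFSF10 regions at −27230, −23502, −23275, −17974, −14 and +10922 bp and the MLKL region, the difference was called in every alternative that gave an adjusted p. At −27230 bp, where untreated USP18−/− libraries gave 0.175 and 1.16 CPM, it ranged from 2.56 to 5.24 with 1 library left out. The difference at +33129 bp was lost without replicate 2 of untreated WT (0.96, adjusted p = 0.71), without 3 other libraries, and under 4 other settings, with adjusted p between 0.0527 and 0.18. The regions at −35695, −34219, −7324 and −6968 bp lost the call with DESeq2 (adjusted p of 0.0556, 0.0765, 0.0857 and 0.068) and without 2 to 4 of the 8 libraries, 1 at a time.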

How the results depend on the processing

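No called log2 fold change of a named region changed sign under any alternative. Counts of member regions that moved by over 1.5 times were as follows. Members tested were 37 within 20000 bp, 53 within 100000 bp and 50 with DESeq2, other scaling or no fold threshold. Counts within 20000 bp are thus of fewer members. The distance limits left all regions and their calls unchanged. For IFN in WT cells, 1 region was higher with DESeq2 and within 20000 bp, and 6 with no fold threshold. Of all 123276 regions, 335 were higher with DESeq2 and 797 with no fold threshold. For untreated USP18−/− against WT, 0 were higher when scaled by the sum of counts or with loess offsets and 9 with no fold threshold. All regions gave 4990, 8154 and 20804 higher in the same order. Lower were 5 with DESeq2, 5 within 20000 bp and 18 with no fold threshold. Of all regions, 10083 were lower with DESeq2 and 20631 with no fold threshold. With IFN, 1 region was lower in USP18−/− cells within 20000 bp. For IFN in USP18−/− cells, 13 were higher within 20000 bp, and 1 lower with no fold threshold or within 100000 bp. With no fold threshold, 13825 of all regions were lower. For the difference of the effects, 8 were higher with DESeq2 and 10 within 20000 bp, and 1 was lower with no fold threshold. Over all regions, 4135 were higher with DESeq2 and 6439 lower with no fold threshold. With each library left out in turn, IFN in WT cells gave 1 to 3 higher regions, untreated USP18−/− against WT 0 to 2 higher and 6 to 12 lower, USP18−/− with IFN 14 to 15 higher and 2 to 3 lower, IFN in USP18−/− cells 18 to 20 higher and the difference 11 to 15 higher. Replicate numbers did not pair the libraries (correlations of replicate differences 0.0019 to 0.058), and the replicate block left the counts at 2 higher, 1 higher and 9 lower, 15 higher and 3 lower, 20 higher and 16 higher in the same order. Settings that leave a group with 1 library assume that it varies like the others. A region for which DESeq2 gave no adjusted p was not counted as a lost call at that region. Depth limits windows of a few tags, at RIPK3 and ZBP1 above all.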
